A study of Mus musculus with 24 samples.

Results

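Leukocytes populate the lacrimal gland (LG), the exocrine gland that secretes the aqueous layer of the tear film, and 9 genes that mark them were followed here out of 63862 genes listed in the tables of the gland and of its cultured epithelium. They were chosen by name, from the symbols paired with the Ensembl identifiers of the tables, with earlier results of these data known. Ptprc (ENSMUSG00000026395) encodes CD45, the phosphatase on the surface of nearly all white blood cells. Cd3e (ENSMUSG00000032093) is a subunit of the T cell receptor complex, and Cd79a (ENSMUSG00000003379) is the signalling chain of the B cell receptor. Jchain (ENSMUSG00000067149) joins IgA and IgM into polymers, and Mzb1 (ENSMUSG00000024353) is a chaperone of the endoplasmic reticulum in antibody-secreting cells. Csf1r (ENSMUSG00000024621) is the receptor on which macrophages depend, C1qa (ENSMUSG00000036887) is a chain of complement C1q, Cd68 (ENSMUSG00000018774) is a lysosomal glycoprotein of macrophages, and Itgam (ENSMUSG00000030786) is the integrin chain CD11b of myeloid cells.

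In an adult exocrine gland, plasma cells in the stroma secrete polymeric IgA that the epithelium takes up with the receptor encoded by Pigr and passes into the secretion. Macrophages enter glands before birth and depend on CSF1R, whose ligands are encoded by Csf1 and Il34, whereas lymphocytes and plasma cells arrive mainly after birth. Epithelial spheres are grown from the dissociated gland, and RNA of leukocyte genes in the culture can point to leukocytes left there. It gives no count of cells.

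All samples came from C57BL/6 mice, with no transgene or treatment named. The gland was taken from adults and from embryos of the stages E17.5 and E19.5 (E, embryonic day), with 3 libraries per age. The labels give no age for the adult glands. The cultures were lacrimal gland stem cell (LGSC) spheres of passage 2, grown from 6- to 8-week-old mice in Matrigel with a serum-free medium that held EGF, FGF10, Wnt3A and the ROCK inhibitor Y-27632, and taken at day 5 (2 libraries) and at days 7, 10 and 14 (3 libraries each). The protocol names no sorting step, so that any cell of the dissociated gland could enter the primary culture. A single library of passage 10 spheres at day 7 was used for values only. The labels do not say whether replicates came from separate animals or cultures, and the p-values therefore measure the spread between these libraries, which may be technical.

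The values are FPKM, read fragments per length of transcript and per size of library. Low FPKM fall on regular steps set by single reads, and counting those steps recovered 5755997 to 9257665 reads per library for the 20 passage 2 and tissue libraries and 25180915 for the passage 10 library. These totals rest on annotated gene lengths and cover counting error only. In adult LG replicates 1, 2 and 3 55.7%, 53.5% and 26.6% of the reads lay in the top 10 genes, against at most 8.1% elsewhere. The recovered total was 2.386, 2.233 and 1.032 times the scale of the deposited FPKM in these 3 adult libraries and 0.832 to 1.129 times in the other passage 2 and tissue libraries, so that levels in adult LG depend on the scale more than the others. The epithelial genes Krt8 and Epcam were listed at 0 in every tissue and passage 2 library, and of 5333 genes with at least 10 FPKM in the passage 10 library 577 (10.8%) were listed at 0 in all 20 other libraries. A 0 in these tables is therefore given as listed at 0 and not as absence.

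The sequence before the transcription start is shown for Ptprc, Cd3e, Cd79a and Jchain, the pan-leukocyte and lymphoid members with an entry in the RefSeq promoter table. Each is the 250 bases before the start in GRCm38.p6, on the strand of the gene, at chr1:138175306-138175555 (minus strand) for Ptprc, chr9:45009612-45009861 (minus strand) for Cd3e, chr7:24897247-24897496 (plus strand) for Cd79a and chr5:88527898-88528147 (minus strand) for Jchain. The submitters' processing notes name the older build NCBIM37 for the tables, so these positions are those of RefSeq. Capitals mark GAGGAA, a core bound by the myeloid and B cell factor PU.1, and GGAAGT, a core of other ETS-family factors, on either strand.
Ptprc: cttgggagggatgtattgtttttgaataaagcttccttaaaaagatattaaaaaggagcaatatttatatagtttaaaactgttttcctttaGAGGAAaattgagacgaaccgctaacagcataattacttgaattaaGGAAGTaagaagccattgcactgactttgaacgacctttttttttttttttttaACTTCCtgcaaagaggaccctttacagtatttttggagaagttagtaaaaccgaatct
Cd3e: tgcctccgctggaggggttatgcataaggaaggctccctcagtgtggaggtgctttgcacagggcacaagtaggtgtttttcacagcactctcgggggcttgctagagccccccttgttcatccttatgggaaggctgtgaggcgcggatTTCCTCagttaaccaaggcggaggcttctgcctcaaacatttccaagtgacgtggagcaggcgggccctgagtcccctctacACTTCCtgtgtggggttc
Cd79a: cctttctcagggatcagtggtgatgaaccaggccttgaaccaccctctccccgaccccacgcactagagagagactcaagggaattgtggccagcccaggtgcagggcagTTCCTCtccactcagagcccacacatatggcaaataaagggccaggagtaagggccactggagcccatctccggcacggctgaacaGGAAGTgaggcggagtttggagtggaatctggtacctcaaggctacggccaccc
Jchain: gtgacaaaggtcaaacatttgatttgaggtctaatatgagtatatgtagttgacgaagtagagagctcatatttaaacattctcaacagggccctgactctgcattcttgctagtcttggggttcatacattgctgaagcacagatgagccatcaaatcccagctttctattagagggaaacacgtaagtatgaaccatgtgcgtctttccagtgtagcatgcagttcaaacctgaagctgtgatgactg

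The Ptprc window held GAGGAA at 158 bases and GGAAGT at 112 and 58 bases before the start, Cd3e held them at 100 and 18 bases, and Cd79a at 140 and 54 bases, with no overlap between matches. The Jchain window held neither. Over 32851 RefSeq promoter windows of the same length, 23.3% held GAGGAA and 19.7% held GGAAGT on either strand. The octamer ATGCAAAT, which Oct factors bind in B cell genes and which 1.6% of the windows held, was in none of the 4. A match is a description of letters and says nothing of binding.

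The pan-leukocyte gene Ptprc was present in all 9 tissue libraries. Its level was 3.64, 6.18 and 5.99 FPKM in adult LG, 1.17, 1.24 and 1.34 FPKM in E17.5 LG, and 1.58, 1.51 and 1.61 FPKM in E19.5 LG. The 3 adult libraries lay above all 6 embryonic libraries, and the E19.5 libraries lay slightly above those of E17.5. The difference from adult LG was -1.46 on the log2(FPKM + 1) scale at E17.5 (SE 0.18, adjusted p = 2.1e-04) and -1.26 at E19.5 (SE 0.18, adjusted p = 4.9e-04), by limma's test over 18578 genes with Benjamini-Hochberg adjustment. Because 1 is added before the logarithm, these differences are too small for genes of low FPKM. Between the embryonic stages the difference of 0.19 (SE 0.18, adjusted p = 0.706, limma) did not pass the threshold of 0.05. In bulk tissue fewer leukocytes and less RNA per leukocyte cannot be told apart.

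**Figure D1:**
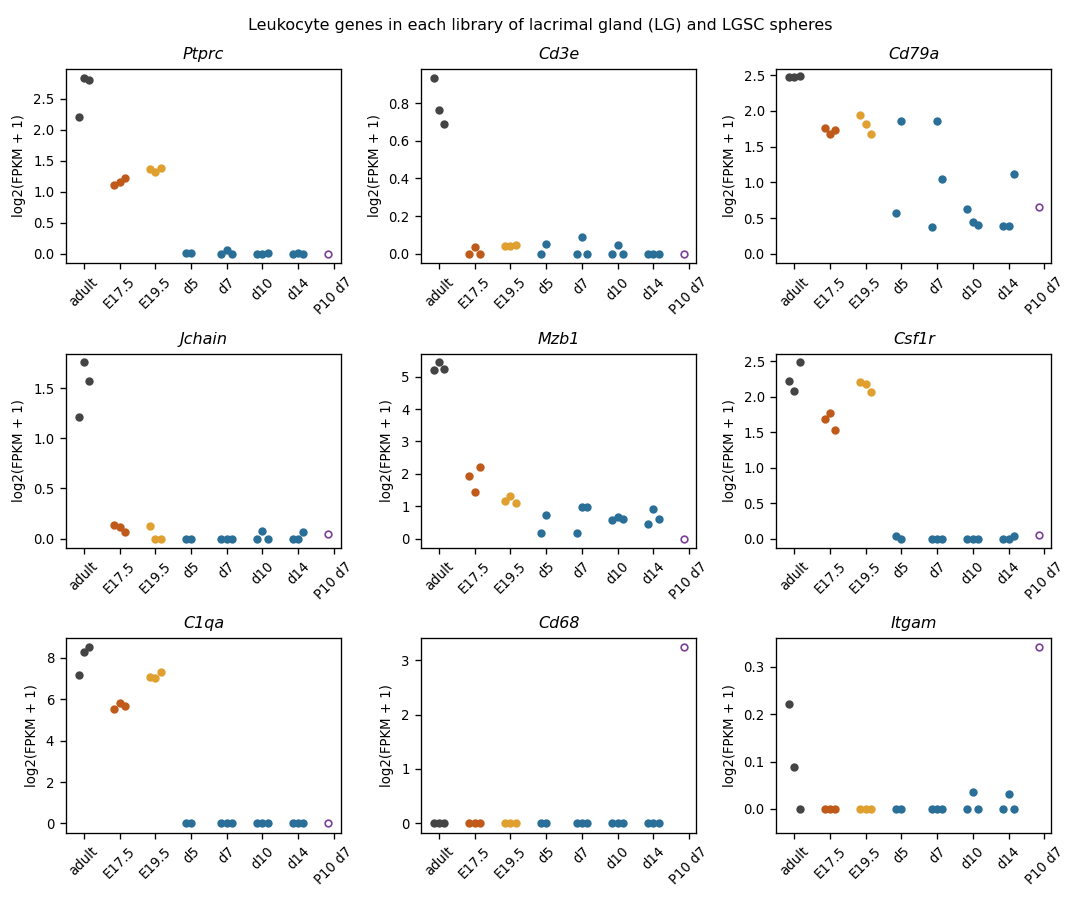
Level of each of the 9 leukocyte genes, as log2(FPKM + 1), in every library of adult, E17.5 and E19.5 LG (3 each), of passage 2 LGSC spheres at day 5 (2), 7, 10 and 14 (3 each) and of passage 10 spheres at day 7 (1, open circle). Each point is a library. The highest tissue values are in adult LG, the passage 2 cultures lie near 0 for 7 genes, Cd68 and Itgam are highest in the passage 10 library, and Cd79a and Mzb1 stay above 0 in all 11 passage 2 cultures.

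Mzb1, of antibody-secreting cells, had the largest difference between adult and embryonic gland among the tested members on the log2(FPKM + 1) scale. That ranking depends on the added 1, which shrinks the difference of low genes such as Jchain more. It stood at 36.2, 42.5 and 36.8 FPKM in adult LG, at 2.84, 1.72 and 3.59 FPKM in E17.5 LG, and at 1.26, 1.47 and 1.13 FPKM in E19.5 LG. The 3 groups did not overlap, with E19.5 the lowest. The difference from adult LG was -3.44 at E17.5 (SE 0.20, adjusted p = 3.4e-06, limma) and -4.11 at E19.5 (SE 0.20, adjusted p = 1.5e-06), while that between the embryonic stages, -0.67 (SE 0.20, adjusted p = 0.148), missed the threshold. In the annotation used here Mzb1 shares its strand with an overlapping gene, so that its reads could in part belong to that neighbour. Ptprc, Cd3e, Csf1r and Itgam also overlap a gene on their own strand, which for Itgam is protein-coding.

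Jchain was listed low even in adult LG, with 1.32, 2.38 and 1.98 FPKM on 8, 19 and 38 reads. It stood at 0.102, 0.0824 and 0.0497 FPKM in E17.5 LG, at 0.0909 FPKM in E19.5 LG replicate 1, and was listed at 0 in E19.5 LG replicates 2 and 3. No embryonic library held more than 2 reads of it. The adult and embryonic libraries did not overlap (adjusted p = 1.3e-04 at E17.5 and 1.1e-04 at E19.5, limma). It passed the filter of a mean of 0.5 FPKM only through the adult libraries. The gene for the receptor that carries J chain-linked antibody across the epithelium, Pigr, stood at 408.5, 445.7 and 157.8 FPKM in adult LG and at no more than 0.0568 FPKM in any embryonic library. The immunoglobulin heavy chain gene Ighm stood at 7.47, 18.7 and 28.6 FPKM in adult LG, at 0.886 to 1.13 FPKM at E17.5 and at 2.16 to 2.79 FPKM at E19.5, whereas Igha and Igkc were listed at 0 in all tissue libraries. The plasma cell list held 10 genes with Jchain and Mzb1 among them. Of the 5 tested, 5 were lower at E17.5 (median -1.60, against 0.05 over all 18578 genes) and 4 at E19.5 (median -1.62, against 0.09). Over all genes 24.9% and 23.9% were lower. Jchain and Tnfrsf17, the receptor BCMA of plasma cells, passed the filter only through adult LG and had to be lower. Xbp1, a factor of secretory cells of any kind, fell from 58.8 to 89.8 FPKM in adult LG to 2.69 to 5.14 FPKM in embryonic LG.

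Among B cell genes the gap was smaller. Cd79a stood at 4.55, 4.55 and 4.59 FPKM in adult LG, at 2.38, 2.21 and 2.32 FPKM in E17.5 LG, and at 2.83, 2.52 and 2.19 FPKM in E19.5 LG. All adult libraries lay above all embryonic ones, and the embryonic stages overlapped. The difference from adult LG was -0.75 at E17.5 (SE 0.12, adjusted p = 9.1e-04, limma) and -0.67 at E19.5 (SE 0.12, adjusted p = 0.00185). These values rest on 16 to 51 reads per library. Its partner chain Cd79b spread more widely, with 0.869, 3.31 and 5.86 FPKM in adult LG and 1.53 to 3.12 FPKM in embryonic LG, and the groups overlapped. The B cell surface gene Ms4a1 was at or under 0.067 FPKM in every tissue library. Of the 12 genes in the B cell list 3 were tested, of which Cd79a alone was lower at both embryonic stages.

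The T cell member Cd3e stood at 0.914, 0.696 and 0.611 FPKM in adult LG on 9, 9 and 19 reads. In embryonic LG it was listed at 0 in E17.5 replicates 1 and 3 and held 1 read in each of the other four libraries, or 0.0254 to 0.0312 FPKM. It did not reach the mean of 0.5 FPKM over the 9 libraries and was not tested. The other chains of the complex differed among themselves. Cd3d stood at 0.914, 3.65 and 3.25 FPKM in adult LG and at most 0.315 FPKM in embryonic LG, and Cd3g at 1.60 to 2.92 FPKM against at most 0.105 FPKM. Both passed the filter only through adult LG, so that their lower calls say no more than these levels. Cd247, the zeta chain, was not tested. Adult LG, at 0.389 to 0.592 FPKM, overlapped with E17.5 LG, at 0.352 to 0.482 FPKM. E19.5 LG, at 0.167 to 0.365 FPKM, lay below all adult libraries. The receptor chain gene Trbc2, at 7.79 to 9.12 FPKM in adult LG, was lower by -2.59 at E17.5 (SE 0.25, adjusted p = 5.5e-05). The kinase gene Lck went the other way, from 2.55, 5.49 and 2.64 FPKM in adult LG to 8.61 to 9.13 FPKM at E17.5 and 7.81 to 11.7 FPKM at E19.5. Of 15 T cell genes, 11 were tested at each stage. At E17.5, 8 were lower and 1 higher, and at E19.5, 7 were lower and 1 higher, where 24.9% and 23.9% of all genes were lower. The medians were -1.46 and -1.44, against 0.05 and 0.09 over all genes. Of these 11 genes 6 passed the filter only through adult LG and had to be lower, so the counts are a description.

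Of the macrophage members, Csf1r and C1qa were lower than in adult LG at E17.5, and both overlapped with adult LG at E19.5. C1qa was the most abundant member, at 143.5, 314.5 and 365.1 FPKM in adult LG, 45.6, 55.9 and 49.3 FPKM in E17.5 LG, and 132.8, 128.6 and 158.9 FPKM in E19.5 LG. E17.5 LG lay below both other groups, while the lowest adult library lay inside the range of E19.5 LG. The difference from adult LG was -2.32 at E17.5 (SE 0.32, adjusted p = 3.8e-04, limma). At E19.5 it was -0.86 (SE 0.32, adjusted p = 0.0475), and this call was lost in 8 of the 9 fits that left out 1 library (adjusted p = 0.0674 to 0.139, with adult replicate 1 the exception), with no filter (adjusted p = 0.082) and with the 2 groups alone (adjusted p = 0.103). From E17.5 to E19.5 the level differed by 1.46 (SE 0.32, adjusted p = 0.066), with no overlap between the stages. That difference passed the threshold with limma-voom on the recovered reads (1.40, adjusted p = 0.0454), without adult replicate 1 (adjusted p = 0.00723) and without adult replicate 3 (adjusted p = 0.019).

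Csf1r stood at 3.65, 3.23 and 4.59 FPKM in adult LG, 2.21, 2.40 and 1.89 FPKM in E17.5 LG, and 3.61, 3.51 and 3.18 FPKM in E19.5 LG. The E17.5 libraries were below all others, and adult and E19.5 LG overlapped. The difference from adult LG was -0.60 at E17.5 (SE 0.15, adjusted p = 0.00799, limma) and -0.11 at E19.5 (SE 0.15, adjusted p = 0.54), and that between the stages 0.49 (SE 0.15, adjusted p = 0.152). The ligand gene Csf1 stood at 2.98, 4.6 and 7.22 FPKM in adult LG, at 2.39 to 2.80 FPKM at E17.5 and at 4.32 to 6.35 FPKM at E19.5. The other ligand gene, Il34, stayed at or under 0.736 FPKM in all tissue libraries.

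No read of Cd68 was found in any of the 20 tissue and passage 2 libraries. Itgam held 2 reads in adult LG replicate 1 (0.165 FPKM), 1 in replicate 2 (0.0628 FPKM) and was listed at 0 in replicate 3 and in all 6 embryonic libraries. Its partner Itgb2 was at or under 0.0859 FPKM, and C1qb and C1qc, the chains that assemble with C1qa, stood at or under 1.05 and 1.29 FPKM. By contrast the macrophage gene Adgre1 (F4/80) stood at 7.79, 16.5 and 18.5 FPKM in adult LG, 5.90 to 8.98 FPKM at E17.5 and 14.3 to 18.1 FPKM at E19.5. Cd68 and Itgam thus gave no reading of myeloid cells here.

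Over the 9 members, 6 were tested in tissue. At E17.5, 6 were lower than in adult LG and 0 higher, where 24.9% of all 18578 genes tested were lower and 29.1% higher, and at E19.5 5 were lower, where 23.9% of all genes were lower and 30.3% higher. Jchain is counted here although it passed the filter only through adult LG. Between E19.5 and E17.5 LG none of the 6 passed the threshold with limma, 3 had an unadjusted p under 0.05 (C1qa, Mzb1 and Csf1r), limma-voom called 1, and 1.74% of all genes were called. The median difference of the 6 members was -1.43 at E17.5 and -1.06 at E19.5, against 0.05 and 0.09 over all genes tested.

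These directions depend on the scale. With each library rescaled to the same sum (the TPM scale), the median over all genes moved to 1.23 at E17.5 and 1.06 at E19.5, and the difference from adult LG turned positive for Ptprc, Cd79a and Csf1r at both stages and for C1qa at E19.5, while Mzb1 (-1.53 and -2.56) and Jchain (-0.89 and -1.07) stayed negative. The whole table at E17.5 held 5405 genes called higher and 4634 called lower on the deposited scale, against 14660 and 1093 on the TPM scale and 7918 and 2132 with libraries scaled to recovered reads, where the median was 0.56. At E19.5 these counts were 5637 and 4440, 12897 and 992, and 7504 and 2103. Relative to the median over all genes, Ptprc was -1.51 on the deposited scale, -1.37 with libraries scaled to recovered reads and -1.16 on the TPM scale at E17.5. Csf1r, at -0.65, -0.56 and -0.19, lay nearer the median. The split between adult libraries was wide on the TPM scale, where Ptprc stood at 1.31 and 2.47 in adult replicates 1 and 2 but at 9.08 in adult replicate 3, against 3.34 to 4.19 in embryonic LG. With adult replicate 3 as the only adult library, 5 of 5 tested members were lower at E17.5 and 4 of 5 at E19.5 on the deposited scale, with the spread taken from the embryonic groups alone and the lone adult library assumed to vary like them.

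**Figure D2:**
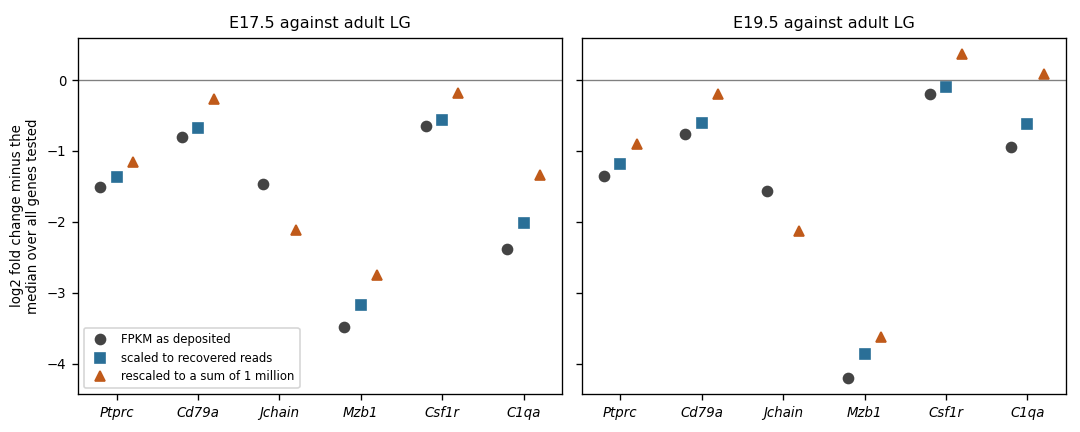
Difference of the 6 tested members from adult LG, as the log2 fold change minus the median over all genes tested in the same fit, for E17.5 and E19.5 LG and for 3 scales of the same tables. Points below the line at 0 have a lower log2 fold change than the median gene, which is above 0 on each scale. Mzb1 lies lowest on each scale, Csf1r lies near the line at E19.5, and Jchain is missing where it failed the filter.

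Ratios of 2 genes within a library do not depend on the scale. The ratio of Mzb1 to Ptprc was 9.93, 6.88 and 6.14 in adult LG, 2.44, 1.39 and 2.68 in E17.5 LG, and 0.80, 0.975 and 0.698 in E19.5 LG. The groups did not overlap. The ratio of Csf1r to Ptprc ran the other way, with 1.00, 0.522 and 0.766 in adult LG, 1.42 to 1.94 in E17.5 LG and 1.97 to 2.32 in E19.5 LG. Relative to the pan-leukocyte gene, the plasma cell gene was thus higher in adult LG and the macrophage receptor gene higher in embryonic LG. The ratio of C1qa to Ptprc was 39.4, 50.9 and 60.9 in adult LG and 36.8 to 45.2 in E17.5 LG, which overlapped, and 84.1 to 98.4 in E19.5 LG, above both. The ratio of Cd79a to Ptprc was 0.735 to 1.25 in adult LG and 1.35 to 2.04 in embryonic LG. With 3 libraries against 3, an exact permutation test cannot fall below 0.10, and no test was run on these ratios.

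**Figure D3:**
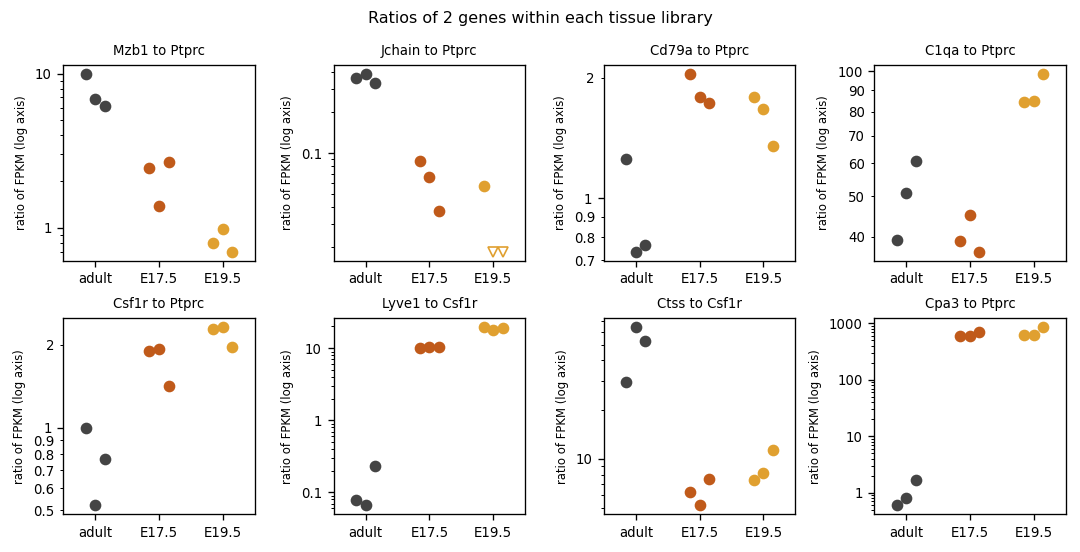
Ratio of the FPKM of 2 genes within each tissue library, on log axes, for adult, E17.5 and E19.5 LG (3 points each). Open triangles mark libraries with the first gene listed at 0, drawn at a fixed place under the lowest ratio. Mzb1 to Ptprc is highest in adult LG, Csf1r to Ptprc is lowest there, and the groups separate widely for Lyve1 to Csf1r and Cpa3 to Ptprc.

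The wider lists are given by their counts beside those over all genes, of which 24.9% were lower and 29.1% higher at E17.5, and 23.9% lower and 30.3% higher at E19.5. Among 20 macrophage genes, 17 were tested. At E17.5, 9 were lower and 2 higher than in adult LG, and at E19.5, 7 were lower and 4 higher, so that the higher genes were no larger a share of the list than of all genes. They were led by Lyve1, a hyaluronan receptor of lymphatic endothelium and some tissue macrophages, which stood at 0.284, 0.216 and 1.08 FPKM in adult LG, at most 24.8 FPKM at E17.5 and 59.8 to 70.3 FPKM at E19.5, and by the mannose receptor gene Mrc1, which stood at 2.02 to 5.02, 20.1 to 24.3 and 42.8 to 45.3 FPKM in the same order. Lyve1 was also higher at E19.5 than at E17.5 (1.5, SE 0.22, adjusted p = 0.0199, limma). The lysosomal protease gene Ctss went the other way, from 107.4, 206.0 and 241.6 FPKM in adult LG to 12.5 to 14.4 FPKM at E17.5 and 26.8 to 36.1 FPKM at E19.5. The ratio of Lyve1 to Csf1r was 0.0669 to 0.235 in adult LG, 9.98 to 10.4 at E17.5 and at least 17.9 at E19.5.

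Mast cell genes had the highest medians of the leukocyte lists. Of 7, 6 were tested and 5 were higher at each embryonic stage, with medians of 2.49 and 3.83. Over all genes 29.1% and 30.3% were higher. Ms4a2, listed at 0 in all adult libraries, passed the filter only through embryonic LG and had to be higher. Cpa3, the mast cell carboxypeptidase, stood at 2.19, 4.99 and 9.85 FPKM in adult LG, 692.2 to 941.6 FPKM at E17.5 and 945.8 to 1379.3 FPKM at E19.5, and the chymase gene Cma1 at 2.70 to 15.6, 815.1 to 982.1 and 995.0 to 1466.4 FPKM. The ratio of Cpa3 to Ptprc was 0.60 to 1.64 in adult LG and 592.4 to 854.2 in embryonic LG. Mcpt4 rose further between the stages (2.35, SE 0.39, adjusted p = 0.0288, limma). The calls of Lyve1 and Mcpt4 between the stages were lost in 18 of their 30 alternatives. Of 5 dendritic cell genes tested, 4 were lower at each stage, but 3 of the 5 (Itgax, Flt3 and Cd209a) passed the filter only through adult LG. Itgax (CD11c) stood at 9.23, 22.8 and 21.6 FPKM in adult LG and at or under 0.405 FPKM in embryonic LG. Of 4 NK and cytotoxic genes tested, 3 were lower at each stage, but Ccl5 and Gzma passed the filter only through adult LG. Of 5 myeloid and granulocyte genes tested, 4 were higher and 1 lower at E17.5 (median 0.96), and 3 were higher and 1 lower at E19.5 (median 0.87). The neutrophil granule gene Ngp was listed at 0 in all adult libraries and stood at 1.64 to 3.65 FPKM at E17.5. It passed the filter only through embryonic LG. So did Retnlg, Camp and Elane, which averaged 0.389, 0.24 and 0 FPKM in adult LG. The higher calls of this list therefore had to be higher and say no more than these levels. Of 11 pan-leukocyte genes tested, 7 were lower at each stage and 4 did not pass the threshold, and 1 of the 11 (Lcp1) passed the filter only through adult LG.

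**Figure D4:**
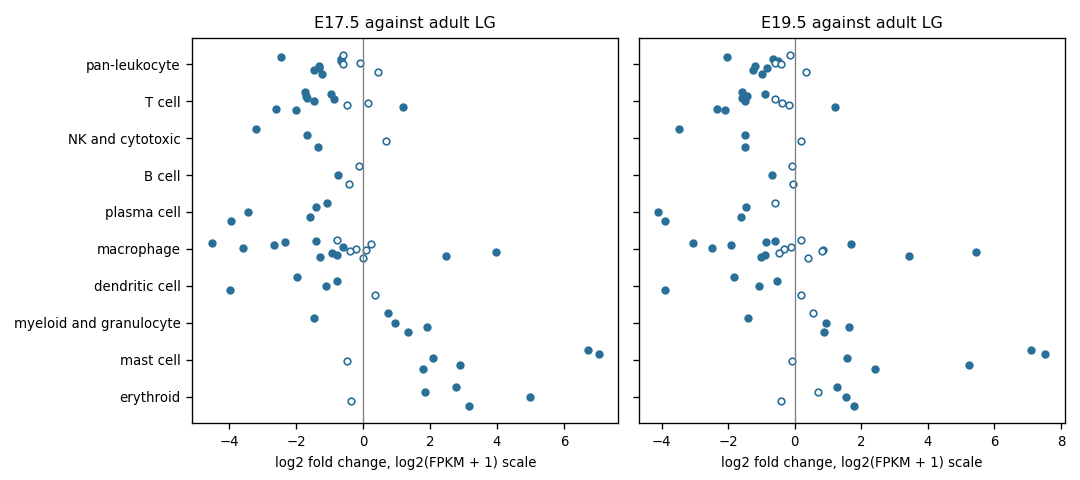
Difference from adult LG, as a log2 fold change on the log2(FPKM + 1) scale, of each tested gene in 10 cell type lists at E17.5 and E19.5. Filled points have an adjusted p under 0.05 (limma) and open points do not. Most T cell, plasma cell and dendritic cell genes lie to the left and 5 of 6 mast cell genes to the right, while macrophage genes lie on both sides.

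Other cell types moved with these groups. The summed level of 5 lacrimal acinar genes, of which Bhlha15 was listed at 0 throughout, was 246695.1 to 1551158.3 FPKM in adult LG and at most 91.1 FPKM in embryonic LG. The summed level of 6 fibroblast genes, all above 0 in every tissue library, was 164.1 to 322.6 FPKM in adult LG and 4704.8 to 5679.7 FPKM in embryonic LG. The part of these in the leukocyte differences was not tested. Erythroid genes, a sign of blood in the sample, summed to 4.26 to 4.87 FPKM in adult LG, 39.7 to 74.4 FPKM at E17.5 and 10.1 to 13.5 FPKM at E19.5 over 10 genes, 5 of them listed at 0 in every adult library. Their part was not tested either. The adult alpha globin gene Hba-a1 was listed at 0 in all tissue libraries.

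The genes closest in pattern to each member over the 9 tissue libraries were named by Pearson's r of log2(FPKM + 1) over 18578 genes, as a description in which points share libraries and depth. For Ptprc they were Cybb (r = 0.998), the phagocyte oxidase subunit, Il7r (0.996), the interleukin-7 receptor, and Slc16a11 (0.995). For Jchain they were Lepr, Ciita and Igkv1-135 (each 0.998), of which Ciita drives MHC class II and Igkv1-135 is an antibody light chain segment. For C1qa they were Oas1a (0.994), Aif1 (0.993) and Ly86 (0.992), of which Aif1 and Ly86 are myeloid genes. For Csf1r they were an unnamed assembled locus, Scarf1 (both 0.969) and 6720427I07Rik (0.967). Cd79a had Gm14066 (0.998) and 2 unnamed loci (0.993), and Mzb1 an unnamed locus (0.995), 4933431E20Rik and Adrm1 (each 0.994).

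In the cultures most members were listed at or near 0. C1qa and Cd68 were listed at 0 in all 11 passage 2 libraries. For C1qa, 3 reads would be at most 0.425 FPKM in any culture. Ptprc was listed at 0 in 6 libraries and held 13 reads over the other five, 7 of them in day 7 replicate 2, where it reached its highest level of 0.0489 FPKM. Csf1r, Jchain and Itgam held 2 reads each over all 11 cultures. Cd3e held 4 reads, in day 5, day 7 and day 10 replicate 2 only. Against adult LG, 6 members were tested and 6 were lower at day 7, where 21.1% of 17698 genes were lower, and 6 at day 14, where 17.8% of 17872 genes were. Ptprc, Jchain, Csf1r and C1qa passed the filter only through the adult libraries, so that their calls say no more than their levels (adjusted p at day 7 of 5.9e-04, 0.00252, 4.8e-04 and 8.1e-05, limma). The other macrophage genes were mixed. Of the 20 in the list, C1qa, C1qb, C1qc, Cd68, Adgre1 and Trem2 were listed at 0 in all 11 cultures, whereas 4 were above 0 in all of them, namely Cd14, Fcer1g (0.413 to 1.86 FPKM), Aif1 (0.167 to 2.78 FPKM) and Mertk (0.0814 to 2.04 FPKM). The list summed to 21.5 to 374.1 FPKM in the cultures, mostly through Cd14, against 546.1 to 1402.5 FPKM in adult LG. Tyrobp and Lyz2, at 54.7 to 146.5 and 97.3 to 192.6 FPKM in adult LG, were at most 0.180 and 0.183 FPKM in the cultures.

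**Figure D5:**
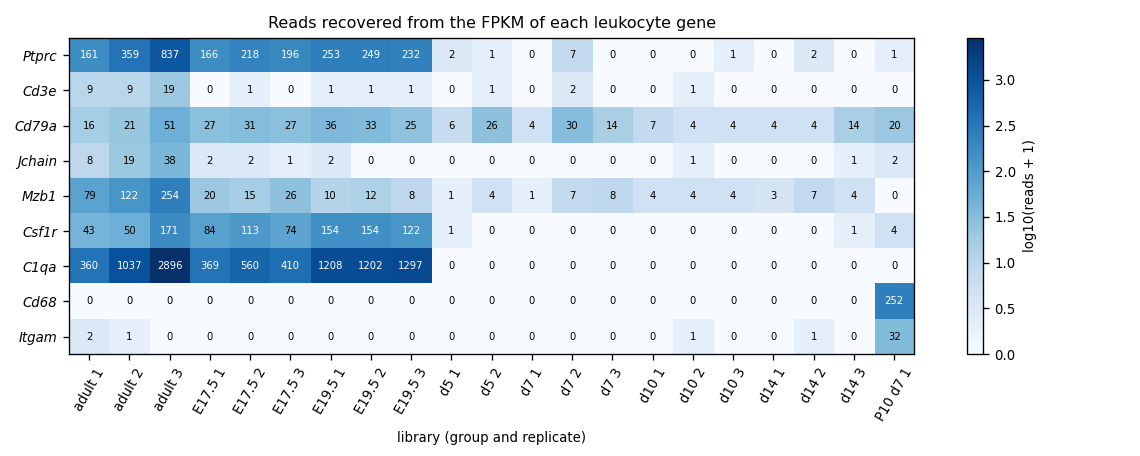
Reads recovered from the FPKM of each of the 9 genes in all 21 libraries, printed in each cell and coloured by log10(reads + 1). The 11 passage 2 cultures hold at most 7 reads of Ptprc and none of C1qa, Cd79a and Mzb1 have reads in each of them, and Cd68 has reads in the passage 10 library alone.

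Cd79a and Mzb1 were the exceptions, with reads in all 11 cultures. Cd79a stood at 0.484 and 2.63 FPKM at day 5, 0.297, 2.63 and 1.07 FPKM at day 7, 0.543, 0.356 and 0.317 FPKM at day 10, and 0.308, 0.309 and 1.16 FPKM at day 14, on 117 reads in all. The 2 highest libraries were day 5 and day 7 replicate 2, and every culture lay below every adult library. The difference from adult LG was -1.38 at day 7 (SE 0.37, adjusted p = 0.03, limma) and -1.85 at day 14 (SE 0.25, adjusted p = 0.00345). At day 7 the call was lost in 5 of the 6 fits that left out 1 library (adjusted p = 0.0559 to 0.0932, with day 7 replicate 2 the exception), and with adult replicate 3 as the only adult library (adjusted p = 0.268), and on the TPM scale the difference was 0.07. Over all genes at day 7, 2507 were higher and 3731 lower on the deposited scale and 10749 and 1207 on the TPM scale. In the same cultures Cd79b stood at no more than 0.673 FPKM, and Ms4a1 was listed at 0.

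Mzb1 stood at 0.130 and 0.652 FPKM at day 5, 0.119, 0.989 and 0.987 FPKM at day 7, 0.5, 0.574 and 0.511 FPKM at day 10 and 0.372, 0.869 and 0.532 FPKM at day 14, on 1 to 8 reads per library. It was lower than in adult LG by -4.59 at day 7 (SE 0.28, adjusted p = 1.9e-04, limma) and -4.64 at day 14 (SE 0.22, adjusted p = 1.1e-04). Neither gene passed the threshold with time in fits without the replicate number, although same-numbered cultures deviated together. With the replicate number as a block neither call changed. Between day 14 and day 7 Cd79a differed by -0.47 (SE 0.41, adjusted p = 0.719) and Mzb1 by -0.06 (SE 0.27, adjusted p = 0.955). Of 15744 genes 0% were called there, with 0 genes by limma and 0 by limma-voom, and 1557 had an unadjusted p under 0.05. The slope per culture day over all 11 libraries was -0.072 for Cd79a (SE 0.045, adjusted p = 0.41) and 0.011 for Mzb1 (SE 0.026, adjusted p = 0.86), where 2.14% of 15584 genes were called, a count of 334 genes that was 783 with the replicate number as a block.

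The 4 replicate 2 cultures stood apart from the other seven. Trbc2 was 1.95 to 5.63 FPKM in them and at most 0.348 FPKM in the others, Cd5 0.926 to 2.82 against at most 0.279 FPKM, and Coro1a, a coronin of leukocytes, 0.700 to 1.38 against at most 0.127 FPKM. The keratin gene Krt18 was 130.1 to 176.0 FPKM in replicate 2 and 688.9 to 1734.0 FPKM in the others. The epithelial cadherin gene Cdh1 overlapped, with 387.6 to 574.4 against 553.0 to 916.3 FPKM. The defining T cell genes Cd3d and Cd3g were listed at 0 in all 11 cultures. Without these cultures 6 of 6 tested members were lower than in adult LG at day 7 and at day 14. Ptprc, Jchain, Csf1r and C1qa, and at day 14 Mzb1, passed the filter only through adult LG and had to be lower. Over all genes 2743 were lower at day 7 in that fit, against 3731 with all cultures. The day 14 to day 7 difference of Cd79a was 0.03 without the replicate 2 cultures. Of the 15 T cell genes 5 were listed at 0 in all day 7 cultures, and their summed level was 1.42 to 8.27 FPKM there against 30.9 to 50.6 FPKM in adult LG.

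Some genes of the leukocyte lists were well above 0 in the cultures. Cd14, a coreceptor for bacterial lipopolysaccharide, had a median of 100.2 FPKM and a highest level of 370.7 FPKM over the cultures, against 45.4 to 267.8 FPKM in adult LG. The phosphatase gene Ptpn6 stood at 10.6 to 18.1 FPKM in the cultures against 24.4 to 37.8 FPKM in adult LG, and the ligand gene Csf1 at 3.24 to 12.3 FPKM, while the epithelial cadherin gene Cdh1 was 387.6 to 916.3 FPKM. The receptor gene Csf1r was listed at 0 in 9 of the 11. The pan-leukocyte gene Cd53 averaged 0, 0.125, 0.349 and 0.858 FPKM at days 5, 7, 10 and 14, against at most 0.0753 FPKM in adult LG. Arhgdib, of the same list, was 0.265 to 1.65 FPKM in the cultures and at most 0.461 FPKM in adult LG. Of 11 genes of that list tested at day 14, 10 were lower than in adult LG, where 17.8% of all genes were. Most of the 10 passed the filter only through adult LG.

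The passage 10 library, with its own gene list, held 1 read of Ptprc and none of Cd3e, Mzb1 or C1qa. Cd79a stood at 0.577 FPKM on 20 reads, within the passage 2 range. Cd68 stood at 8.43 FPKM on 252 reads and Itgam at 0.268 FPKM on 32 reads. With 1 library there is no replicate check, and because its gene list differs no difference from passage 2 was tested.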

How the data were processed

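RNA sequencing of C57BL/6 mouse LG and LGSC spheres was analysed in 21 of 24 listed samples, and a day 5 replicate and the passage 6 and passage 20 libraries were not analysed here. Poly-T selected mRNA was made into NEBNext Ultra libraries. Per the submitters' processing notes, CASAVA 1.8, HISAT2 2.0.5, featureCounts 1.5.0-p3 and the build NCBIM37 were used. The authors deposited 1 FPKM value per gene and library, and how FPKM were scaled is not given in the sources used here. Symbols and lengths came from GENCODE M21, which matched 52403 of 52636 Ensembl identifiers, and 11226 assembled loci have no symbol. Groups and replicate numbers came from the labels.

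Reads were recovered as FPKM times length over the value of 1 read (whole to within 0.01 for 92.7% to 93.6% of values up to 1000 reads). For Mzb1 and Csf1r the length that gave whole reads replaced the annotated one. Tests used limma 3.58.1 in R 4.3.3 (lmFit, eBayes with trend) on log2(FPKM + 1), keeping genes whose mean over the fitted libraries reached 0.5 FPKM, with Benjamini-Hochberg adjustment over all genes kept and a threshold of 0.05. The 9 tissue libraries shared 1 fit, the other comparisons used their own 6 libraries, and the slope used 11. limma-voom ran on the recovered reads with median-of-ratios library sizes. Python 3.11.15, pandas 2.3.3, numpy 2.4.6 and matplotlib 3.10.9 made the tables and figures. The members and lists were chosen with earlier results of these data known. Genes were named by rule: the members, their 13 partners, up to 4 genes past the threshold per list and comparison, and the 3 most alike per member with a mean of 0.5 FPKM or more. Levels of Trem2, Fcer1g, Aif1, Mertk, Flt3, Gzma, Lcp1, Ngp, Retnlg, Camp, Elane, Ms4a1, Ms4a2, Adgre1, Cd5, Coro1a, Cd53, Arhgdib, Cd14, Ptpn6, Krt8, Epcam, Krt18, Cdh1, Hba-a1, Bhlha15, Tyrobp and Lyz2 were added after their values were seen.

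Same-numbered cultures deviated together (15 pairs, correlations of deviations from the group means 0.26 to 0.72, mean 0.46, against -0.22 for different numbers), so the numbers pair the cultures. The pairing comes from the data, since the labels do not state it. On simulated reads with known changes of 2 on the log2 scale, 67.6% of 188 changed genes that passed the filter were called for E17.5 against adult LG over 13615 genes with 8% of calls false, and 65.7% of 181 for LGSC day 7 against adult LG over 12621 genes with 13.8% false. The simulation gave all genes the same dispersion, unchanged genes the same mean in all groups, and scaled by exact read totals. It held no scale differences between adult libraries, so these rates need not hold for the real tables. Alternatives were another pseudocount (0.1), no filter, the replicate block, each library left out, the TPM scale, limma-voom, other library sets, and, chosen after seeing the data, scaling to recovered reads, adult replicate 3 alone and no replicate 2 cultures.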

Additional observations from a re-analysis of the deposited data

Results flagged for a closer look

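In the passage 10 day 7 library, which entered no comparison, 3 members were above their level in every passage 2 culture and above 3 reads. Cd68 stood at 8.43 FPKM on 252 reads where all 20 other libraries listed it at 0, adult LG included. Itgam stood at 0.268 FPKM on 32 reads against at most 0.0258 FPKM in the passage 2 cultures, and Csf1r at 0.0344 FPKM on 4 reads against at most 0.0246 FPKM. This library was made against another gene list and at 25180915 recovered reads, and of the 5333 genes with at least 10 FPKM in it 2696 (50.6%) were more than 10 times lower in day 7 cultures of passage 2. Whether the cells or the gene list set these 3 values cannot be told apart with 1 library.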

How the results depend on the processing

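On the deposited scale the directions of the tested members against adult LG held in every alternative, but not on other scales. On the TPM scale the members called numbered 2 at E17.5 and 3 at E19.5 against adult LG, with log2 differences that turned to 0.07 for Ptprc, 0.95 for Cd79a and 1.04 for Csf1r at E17.5, and to 0.16 for Ptprc, 0.86 for Cd79a, 1.42 for Csf1r and 1.14 for C1qa at E19.5, while Cd79a was -0.09 between E19.5 and E17.5 and 0.07 between day 7 and adult LG. Scaled to recovered reads, 2 and 1 members were called at E17.5 and E19.5, and Csf1r was 0.00 and 0.41. That adult libraries differ most in scale is a measured fact, and the cause was not tested. Between E19.5 and E17.5 limma-voom called 1 member. Leaving out 1 library gave 5 to 6 members called at E17.5, 3 to 5 at E19.5, 0 to 2 between the stages and 5 to 6 at day 7. Between day 14 and day 7, Mzb1 was 0.05 with a pseudocount of 0.1, 0.01 on the TPM scale, 0.14 with limma-voom and -0.33 to 0.08 with 1 library left out, and Cd79a was 0.03 without replicate 2 cultures. For the slope per day, Mzb1 was -0.01 with days 7, 10 and 14 only and -0.01 to 0.02 with 1 library left out, and Cd79a 0.01 without replicate 2 cultures.

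Genes called over the whole table moved more. On the TPM scale they numbered 15753 at E17.5, 11956 at day 7 and 12191 at day 14 against adult LG, 172 between the embryonic stages and 185 for the slope. Between the embryonic stages the count was 162 with a pseudocount of 0.1, 177 scaled to recovered reads, and 50 (without E17.5 replicate 1) to 1736 (without adult replicate 3). For day 14 against adult LG it was 8133 with all 20 libraries in 1 fit, 2338 with adult replicate 3 as the only adult library and 2756 to 7056 with 1 library left out, and for day 7 3770 to 8135. Between day 14 and day 7, all 20 libraries in 1 fit gave 50. The slope gave 82 with no filter, 0 with days 7, 10 and 14 only, and 11 (without day 5 replicate 1) to 384 with 1 library left out.

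With the replicate number as a block, the slope called 783 genes. In tissue, same-numbered libraries did not deviate together (correlations -0.08 to 0.06), and the block gave 100 genes between the embryonic stages. The block changed no call of a member. Depth limits Cd3e, Jchain and Mzb1, which rest on few reads.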
